A study of Homo sapiens with 6 samples.

Results

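The TMEM mRNAs are the transcripts whose gene symbol, as listed with each site, starts with TMEM followed by a digit. The rule found 123 TMEM genes among 8204 genes with a site in any of 6 libraries, and 1093 of 72385 sites. The libraries record RNA held by AEG1, the product of the MTDH gene, after crosslinking and immunoprecipitation (CLIP). All 6 libraries, the negative controls included, came from AEG-1-14 cells, a HepG3 derivative that stably expresses AEG1 with a C-terminal HA tag, so the protein recovered was an added, tagged copy. The labels do not say whether the line is 1 clone. The 4 groups were HITS-CLIP AEG1 (2 libraries, UV at 254 nm), HITS-CLIP negative control (2 libraries, no UV), PAR-CLIP AEG1 (1 library, UV at 365 nm) and PAR-CLIP negative control (1 library, no UV).

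TMEM is a placeholder name for proteins with a predicted membrane-spanning segment, given when little else was known of them. The genes are not one family by descent. Most of their mRNAs are translated at the endoplasmic reticulum (ER), where the signal recognition particle brings ribosomes making a membrane protein to the translocation channel, and the proteins then stay in the ER or move on to the Golgi, lysosomes or the cell surface. Some TMEM proteins instead enter mitochondria, which import most of their proteins from the cytosol. AEG1 (also called metadherin or LYRIC) is itself an ER membrane protein known for its role in liver and other cancers.

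A site is a stretch of an mRNA that was called in one library. HITS-CLIP AEG1 had 103 TMEM sites on 38 genes in replicate 1 and 94 TMEM sites on 38 genes in replicate 2, against 0 sites in both HITS-CLIP negative controls. The AEG1 and control libraries did not overlap. PAR-CLIP AEG1 had 895 TMEM sites on 122 genes, against 1 TMEM site in the PAR-CLIP negative control. The HITS-CLIP means were 98.5 ± 6.36 TMEM sites with UV and 0 ± 0 without it (SD, n = 2 each), and the two-sided exact permutation test gave p = 0.333, the smallest that 2 against 2 libraries allow. PAR-CLIP, with 1 library a group, has no replicate check.

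The control libraries were small throughout, which limits what they show of TMEM mRNAs. The AEG1 libraries held 6378 and 5651 sites by HITS-CLIP and 60085 by PAR-CLIP, against 60 and 90 sites in the HITS-CLIP controls and 121 in the PAR-CLIP control. TMEM sites made up 1.61% (95% exact interval 1.32 to 1.96) and 1.66% (1.35 to 2.03) of HITS-CLIP AEG1 sites and 1.49% (1.39 to 1.59) of PAR-CLIP AEG1 sites. Counts of 0 in the HITS-CLIP controls allow shares of up to 5% and 3.33% taken as 3 counts of the total, or 5.96% and 4.02% as exact upper bounds, and the PAR-CLIP control's share was 0.826% (0.0209 to 4.52), so a difference in the TMEM share between AEG1 and control libraries was not detectable. Intervals cover counting error only, and read depth is unknown because no read counts were used. Markers of the labelled origin were present: 8 of 9 hepatocyte and hepatoblast genes had sites in each AEG1 library, with DLK1 at 0, against 2, 2 and 4 of 9 in the controls. Of 8 markers of other cell types (blood, endothelium, connective tissue), 2, 1 and 3 had sites in the AEG1 libraries, among them CD68 with 3 and 3 HITS-CLIP sites and 13 PAR-CLIP sites, against 0 in each control.

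Nearly all TMEM mRNAs appeared in PAR-CLIP AEG1, and fewer appeared in both HITS-CLIP AEG1 replicates. By PAR-CLIP, 122 of 123 TMEM genes (99.2%) had a site, beside 97.6% of all genes with a site in any library, so this share lies near the background. Both HITS-CLIP AEG1 replicates had a site on 30 TMEM genes (24.4%, 17.1 to 33.0), beside 16.1% of all genes. Among genes with a PAR-CLIP AEG1 site the counts were 29 of 122 TMEM genes (23.8%, 16.5 to 32.3), beside 15.5% of all genes. A further 16 TMEM genes had a HITS-CLIP site in 1 replicate, 8 in replicate 1 alone and 8 in replicate 2 alone, and 77 had no HITS-CLIP AEG1 site. Genes are not replicates, so these shares carry no test, and mRNA abundance, which could set which mRNAs are recovered, was not measured in these libraries.

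The shares of other gene families were set beside these. Solute carriers (SLC), which also span membranes several times, had 32.5% of 163 genes in both HITS-CLIP AEG1 replicates, above the TMEM share. Zinc finger genes (ZNF), whose products mostly work in the nucleus, had 9.85% of 132. Mitochondrial ribosomal protein genes (MRPL and MRPS), whose products are made in the cytosol, had 2.82% of 71. The TMEM share thus lay between that of the solute carriers and that of the 2 families of nuclear and mitochondrial proteins. The median number of PAR-CLIP AEG1 sites per gene ran in nearly the same order, with 6 for TMEM, 8.5 for SLC, 1 for ZNF and 3 for MRPL and MRPS. Among genes with 1 to 3 PAR-CLIP sites, 5.13% of TMEM genes and 6.19% of ZNF genes were in both HITS-CLIP replicates. The TMEM share was thus not the higher one there. With 4 to 7 sites it was 18.4%, against 6.25% of 16 ZNF genes, and with 8 to 14 sites 34.6%, against 12.5% of 8. With 15 or more it was 57.9%, against 0% of 2 ZNF genes. The TMEM share was the higher one at these numbers of sites, where ZNF genes were few.

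The mRNA of TMEM2 (now CEMIP2), a cell-surface hyaluronidase, carried the most HITS-CLIP AEG1 sites of any TMEM gene, with 11 in replicate 1 and 13 in replicate 2, and it had 28 in PAR-CLIP AEG1. TMEM30A, a subunit of flippases that move phospholipids between membrane leaflets, had 10 and 8 HITS-CLIP AEG1 sites and 20 PAR-CLIP AEG1 sites. TMEM161A had 10, 4 and 11 sites in the same order, the widest gap between the replicates among these 3 genes. The control libraries had 0 sites on these genes, as on nearly all TMEM genes. The genes were named for their many HITS-CLIP AEG1 sites, so this is no check of them. A single site was found on 18 and 16 of the 38 TMEM genes of HITS-CLIP AEG1 replicates 1 and 2. The median was 2 sites per TMEM gene in each replicate, beside 1 over all genes with a site there.

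Among ER membrane proteins, TMEM109 led with 7 HITS-CLIP AEG1 sites in each replicate and 9 in PAR-CLIP AEG1. TMEM33, which works in the tubular ER, had 6 and 4 HITS-CLIP sites and 29 PAR-CLIP sites, the highest PAR-CLIP number of any TMEM gene. TMEM66 (now SARAF), which limits calcium entry after ER stores are emptied, had 5, 5 and 7 sites. Both HITS-CLIP controls had 0 sites on these ER genes, as on every TMEM gene. These 3 genes were named for their many HITS-CLIP AEG1 sites, so the contrast with the controls is no check of them. TMEM41B, a lipid scramblase needed for autophagosome formation, had 2 HITS-CLIP AEG1 sites in each replicate and 21 in PAR-CLIP AEG1.

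At the nuclear envelope, TMEM209 had 4 and 2 HITS-CLIP AEG1 sites and 19 PAR-CLIP AEG1 sites. TMEM43, an inner nuclear membrane protein, had 3, 2 and 19 sites in that order. TMEM48 (now NDC1), which anchors nuclear pores in the membrane, had 0 and 1 HITS-CLIP sites although PAR-CLIP listed 19, the same PAR-CLIP number as for the other 2. Equal PAR-CLIP numbers thus stood beside different HITS-CLIP numbers in these 3 genes. In the Golgi and lysosome groups, TMEM59, a Golgi protein, had 2 and 4 HITS-CLIP sites and 7 PAR-CLIP sites, and TMEM106B, a lysosomal membrane protein, had 2, 2 and 17. Further genes with sites in all AEG1 libraries were TMEM45B (4, 3 and 9 sites), TMEM98 (3, 2 and 10 sites) and TMEM184A (1, 2 and 25 sites).

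**Figure D1:**
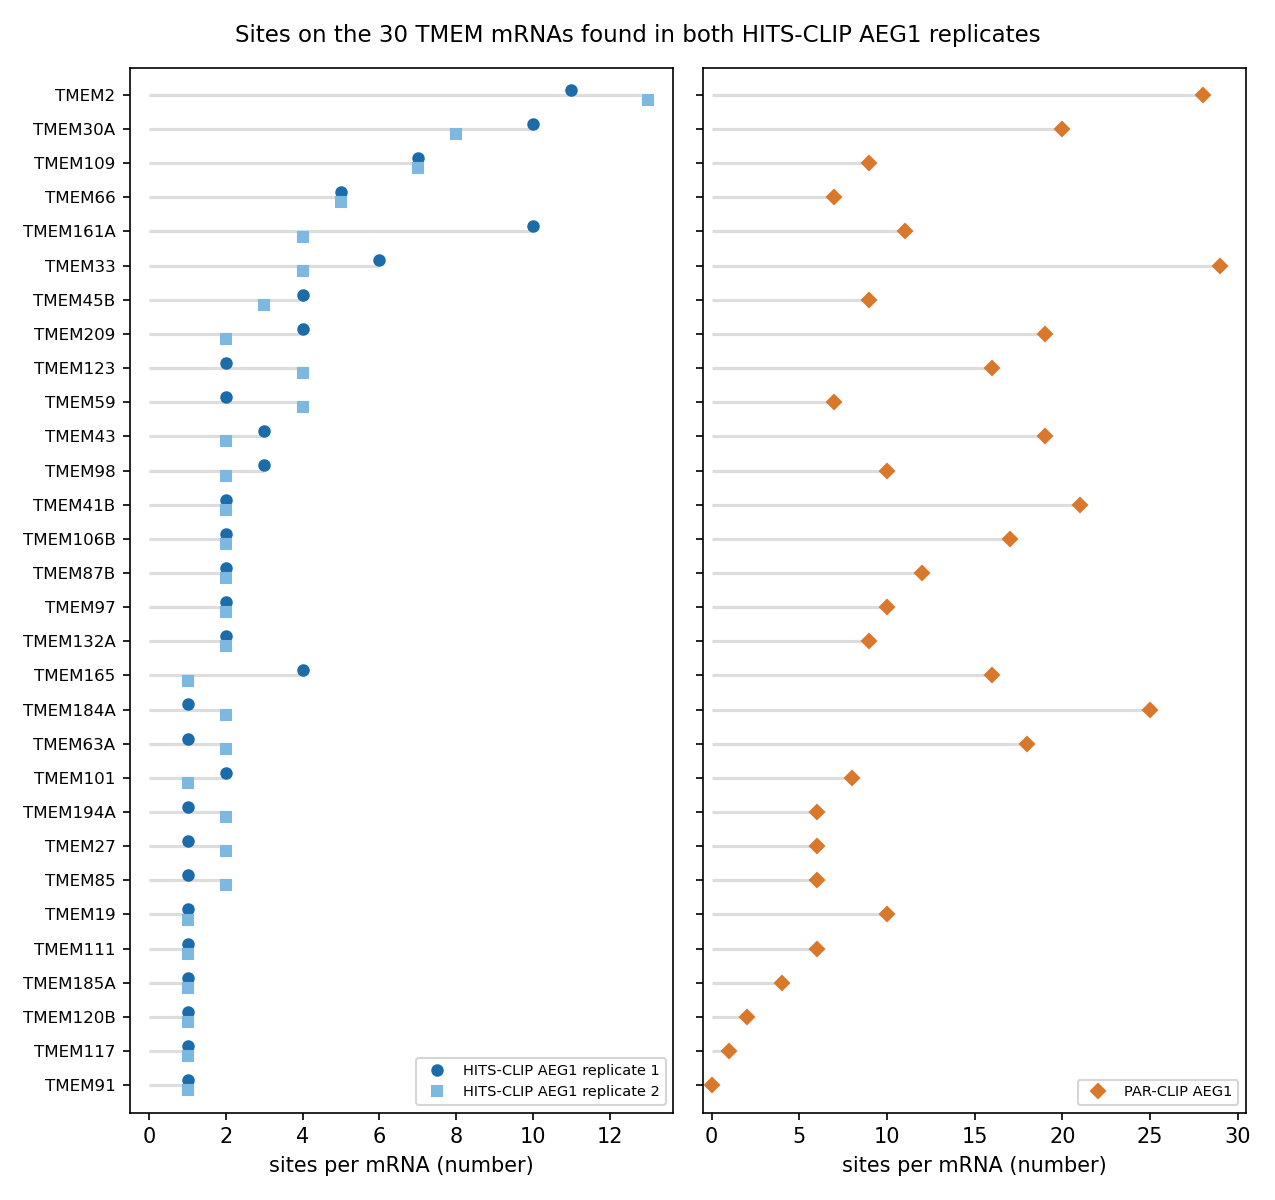
Number of sites per mRNA for the 30 TMEM genes with a site in both HITS-CLIP AEG1 replicates, ordered by the lower of the replicates. The left panel shows HITS-CLIP AEG1 replicate 1 (circles) and replicate 2 (squares), and the right panel PAR-CLIP AEG1 (diamonds); TMEM2 and TMEM30A lead in HITS-CLIP, while TMEM33, TMEM2 and TMEM184A have most PAR-CLIP sites.

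TMEM123 was the TMEM gene with a site in a negative control, beside 0.804% of all genes with a site in the PAR-CLIP negative control. It encodes porimin, a mucin-like surface protein. It had 2 and 4 HITS-CLIP AEG1 sites and 16 PAR-CLIP AEG1 sites, against 1 PAR-CLIP control site and 0 sites in the HITS-CLIP controls. The PAR-CLIP control site covered nt 2087 to 2106 of the mRNA, with a score of 0.19 on the authors' log2 scale. One HITS-CLIP AEG1 replicate 2 site, nt 2087 to 2107, matched it to 1 nt and had the same score. Both lay inside a PAR-CLIP AEG1 site at nt 1827 to 2136 with a score of 4.27. The highest scores on TMEM123 were 3.27 and 3.44 in HITS-CLIP AEG1 and 5.56 in PAR-CLIP AEG1, all above the control site. These libraries differ in size and the scores are not scaled for it as far as the values show. The gap is thus no measure of enrichment over the control.

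At the other end were mRNAs with many PAR-CLIP AEG1 sites and 0 HITS-CLIP AEG1 sites. TMEM164 had 19 PAR-CLIP sites, TMEM131, which takes part in collagen secretion from the ER, had 17, and TMEM127, an endosomal and lysosomal protein that restrains mTOR signalling, had 16. TMEM56 (now TLCD4) and TMEM184B had 11 each. TMEM181 was nearly the same, with 20 PAR-CLIP sites and 1 HITS-CLIP site, in replicate 2. The reverse pattern had 1 member: TMEM91 had a site in each HITS-CLIP AEG1 replicate, at nt 102 to 127 and nt 102 to 128, with scores of 8.57 and 8.58, and 0 PAR-CLIP AEG1 sites.

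Grouped by where the proteins work, the mRNAs of 7 of 24 ER membrane proteins with a site (29.2%) were in both HITS-CLIP AEG1 replicates, beside 16.1% of all genes, and 3 were in 1 replicate. The counts were 4 of 9 for Golgi and trafficking proteins, 4 of 9 for nuclear envelope proteins, 4 of 10 for plasma membrane proteins and 1 of 7 for endosomal and lysosomal proteins. For mitochondrial proteins the count was 0 of 10, which with its exact interval allows up to 30.8% and so includes the 16.1% of all genes, and for proteins of the transition zone at the base of cilia it was 0 of 3. All lists but the mitochondrial one together had 20 of 62 (32.3%, 20.9 to 45.3), and 10 of 51 genes outside the lists (19.6%) were in both replicates. These are small counts with overlapping intervals, and the lists were not tested against each other.

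Within the mitochondrial list, TMEM223, a factor in cytochrome oxidase assembly, had 0 and 1 HITS-CLIP AEG1 sites and 4 PAR-CLIP AEG1 sites. TMEM70, which helps assemble the ATP synthase, had 0, 0 and 4. These mRNAs also had fewer PAR-CLIP sites: the list's median was 2 sites covering 108 nt, against 6.5 sites covering 642.5 nt over the other lists. The furthest site end, a lower bound on the length of the mRNA, had a median of nt 795 in the mitochondrial list, against nt 1729.5 in the others. The mRNAs of the list had from 1 to 4 PAR-CLIP sites. Over all genes, 7.31% of those with 1 to 3 PAR-CLIP sites and 13.4% of those with 4 to 7 were in both HITS-CLIP replicates. The part of PAR-CLIP site number, length and abundance in the mitochondrial count was not tested. In the cilium list TMEM138 and TMEM237, transition zone proteins affected in ciliopathies, had 5 and 4 PAR-CLIP sites and 0 HITS-CLIP sites. TMEM55B (now PIP4P1), a lysosomal phosphoinositide phosphatase, had 1 HITS-CLIP site, in replicate 1, and 1 PAR-CLIP site.

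**Figure D2:**
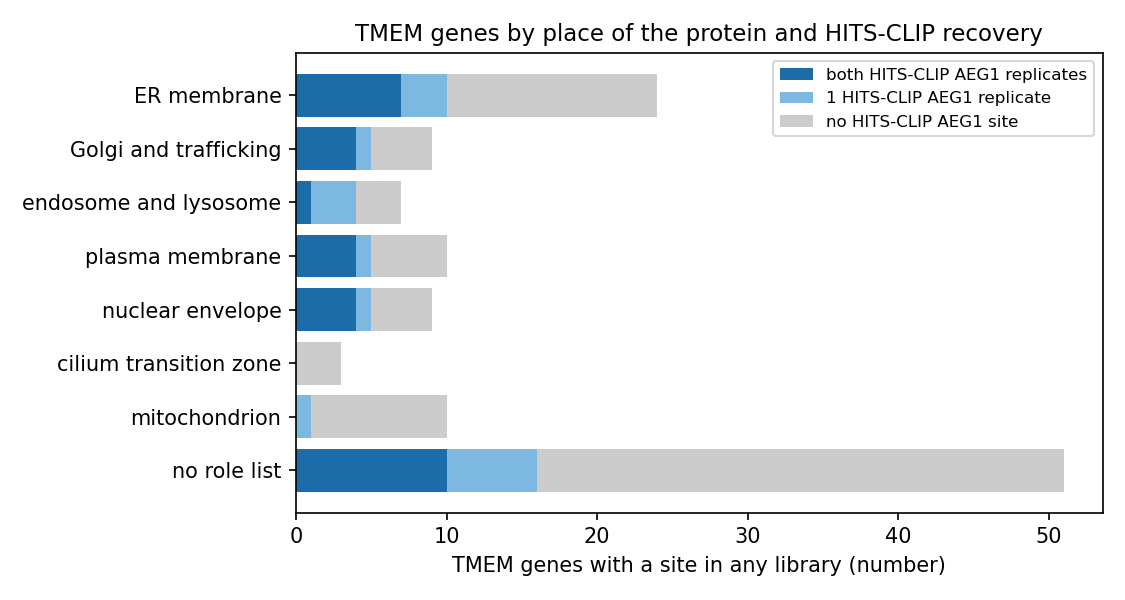
Number of TMEM genes with a site in any library, by the place where the protein works; bar colours give sites in both HITS-CLIP AEG1 replicates, in 1 replicate, or in neither. The mitochondrial list has 0 of 10 genes in both replicates and the ER membrane list 7 of 24.

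TMEM genes with more PAR-CLIP AEG1 sites were more often in both HITS-CLIP AEG1 replicates. Of TMEM genes with 1 to 3 PAR-CLIP sites, 2 of 39 (5.13%) were in both, beside 7.31% of all genes with that number. With 4 to 7 sites it was 7 of 38 (18.4%), beside 13.4% of all genes. With 8 to 14 sites it was 9 of 26 (34.6%), beside 21.7%, and with 15 or more it was 11 of 19 (57.9%, 33.5 to 79.7), beside 32.6%. The TMEM and all-gene shares were thus close at few PAR-CLIP sites and further apart at many, where the highest bin holds 19 TMEM genes. The solute carriers reached 55.9% in that bin, next to the TMEM value. TMEM mRNAs had a median of 6 PAR-CLIP sites, beside 5 over all genes. The median was 10 for TMEM genes in both HITS-CLIP replicates, 10.5 for those in 1 replicate and 4 for those in neither, so the genes in 1 replicate stood close to those in both.

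**Figure D3:**
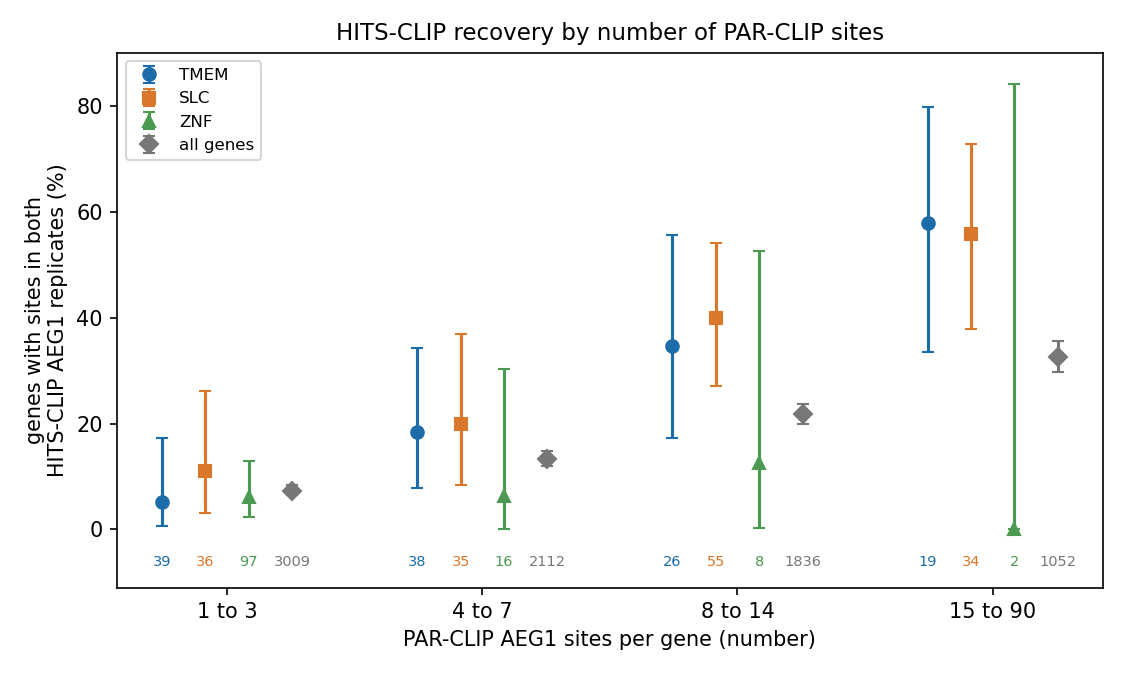
Share of genes (percent, with 95% exact intervals) with a site in both HITS-CLIP AEG1 replicates, by the number of PAR-CLIP AEG1 sites of the gene, for TMEM, SLC, ZNF and all genes; the number of genes stands under each point. The TMEM share is 5.13% at 1 to 3 PAR-CLIP sites and 57.9% at 15 or more, where the share over all genes is 32.6%.

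TMEM genes with a wider PAR-CLIP AEG1 site were also more often in both HITS-CLIP AEG1 replicates. Where that site was under 100 nt, 2 of 39 TMEM genes (5.13%) were in both HITS-CLIP AEG1 replicates, beside 4.41% of all genes. From 100 nt to under 200 nt it was 10 of 57 (17.5%), beside 9.97%, and from 200 nt to under 300 nt it was 7 of 12 (58.3%), beside 27.6%. At 300 nt or more it was 10 of 14 (71.4%), beside 64.9%, and 14 of these 14 TMEM genes had a site in at least 1 HITS-CLIP replicate, beside 80.1% of all genes. The widest PAR-CLIP sites were 981 nt on TMEM66, 858 nt on TMEM33 and 751 nt on TMEM27, which was chosen after its values were seen. TMEM27 (now CLTRN, or collectrin), a membrane protein that supports amino acid transporters in the kidney, had 1 and 2 HITS-CLIP AEG1 sites and 6 PAR-CLIP AEG1 sites.

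Within the mRNAs, most HITS-CLIP AEG1 sites overlapped a PAR-CLIP AEG1 site, while most PAR-CLIP sites had no HITS-CLIP counterpart. Of TMEM HITS-CLIP sites, 96 of 103 in replicate 1 (93.2%, 86.5 to 97.2) and 87 of 94 in replicate 2 (92.6%, 85.3 to 97.0) overlapped a PAR-CLIP site by at least 1 nt, beside 90.2% and 90.4% over all genes. In the other direction, 7.71% and 7.15% of the 895 TMEM PAR-CLIP sites were overlapped by replicates 1 and 2, beside 5.96% and 5.27% of all PAR-CLIP sites. The HITS-CLIP replicates shared fewer sites with each other. Replicate 2 overlapped 56 of 103 TMEM sites of replicate 1 (54.4%, 44.3 to 64.2), beside 63.2% over all genes, and replicate 1 overlapped 56 of 94 TMEM sites of replicate 2 (59.6%, 49.0 to 69.6), beside 71.3%. A median HITS-CLIP TMEM site was 46 nt wide in replicate 1 and 48 nt in replicate 2, and a median PAR-CLIP TMEM site was 73 nt.

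Joined across the replicates, the HITS-CLIP AEG1 sites formed 139 TMEM regions, of which 54 held sites of both replicates, on 24 genes. The other 6 of the 30 genes in both replicates had no position in common. TMEM2 and TMEM30A had 7 shared regions each, TMEM109 had 6, TMEM161A and TMEM33 had 4 each, and TMEM66 had 3. Of the 54 shared regions, 49 overlapped a PAR-CLIP AEG1 site, and 23 overlapped the highest-scoring PAR-CLIP site of their mRNA. The highest-scoring sites of the HITS-CLIP replicates overlapped each other in 13 of the 29 TMEM genes with sites in all AEG1 libraries. These counts of regions and of highest-scoring sites were not worked out over all genes. Whether they differ from the background is thus not known.

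In 10 of 29 TMEM genes with sites in all AEG1 libraries (34.5%), the last HITS-CLIP AEG1 site ended before the midpoint of the stretch from the first base to the last PAR-CLIP AEG1 site, beside 30.1% of all such genes. On TMEM33, all HITS-CLIP AEG1 sites lay from nt 467 to nt 1061, inside a single PAR-CLIP site at nt 270 to 1127, although PAR-CLIP sites went on to nt 7507. Its 4 shared regions were nt 467 to 508, nt 532 to 585, nt 749 to 828 and nt 952 to 1061. TMEM30A had HITS-CLIP sites from nt 267 to nt 1200 and 1 more of 22 nt, at nt 2707 to 2728 in replicate 2, while PAR-CLIP sites reached nt 4406. TMEM66 had HITS-CLIP sites from nt 323 to nt 1137, and its PAR-CLIP site at nt 446 to 1426 held its 3 shared regions.

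On TMEM109 and TMEM2 the HITS-CLIP sites reached further along. TMEM109 had them from nt 453 to nt 1526. On TMEM2, HITS-CLIP AEG1 sites ran from nt 409 to nt 4400 and PAR-CLIP AEG1 sites from nt 21 to nt 6276. The shared regions of TMEM2 included nt 1188 to 1252, nt 1760 to 1863 and nt 3899 to 3966. Site position was taken as a fraction of the furthest site end on the mRNA. Its median was 0.31 and 0.36 over 102 and 93 TMEM sites of the HITS-CLIP replicates and 0.54 over 895 of PAR-CLIP. Over all genes it was 0.40, 0.40 and 0.54. The median HITS-CLIP site thus lay nearer the 5′ end than the median PAR-CLIP site, with a wider gap on TMEM mRNAs. This difference was not tested, and the medians come from unlike sets of genes. Of the 122 TMEM genes with PAR-CLIP sites, 77 had no HITS-CLIP site, so there a PAR-CLIP site sets the furthest end. The sites were not divided into coding sequence and UTRs, whose boundaries on these mRNAs were not used here.

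**Figure D4:**
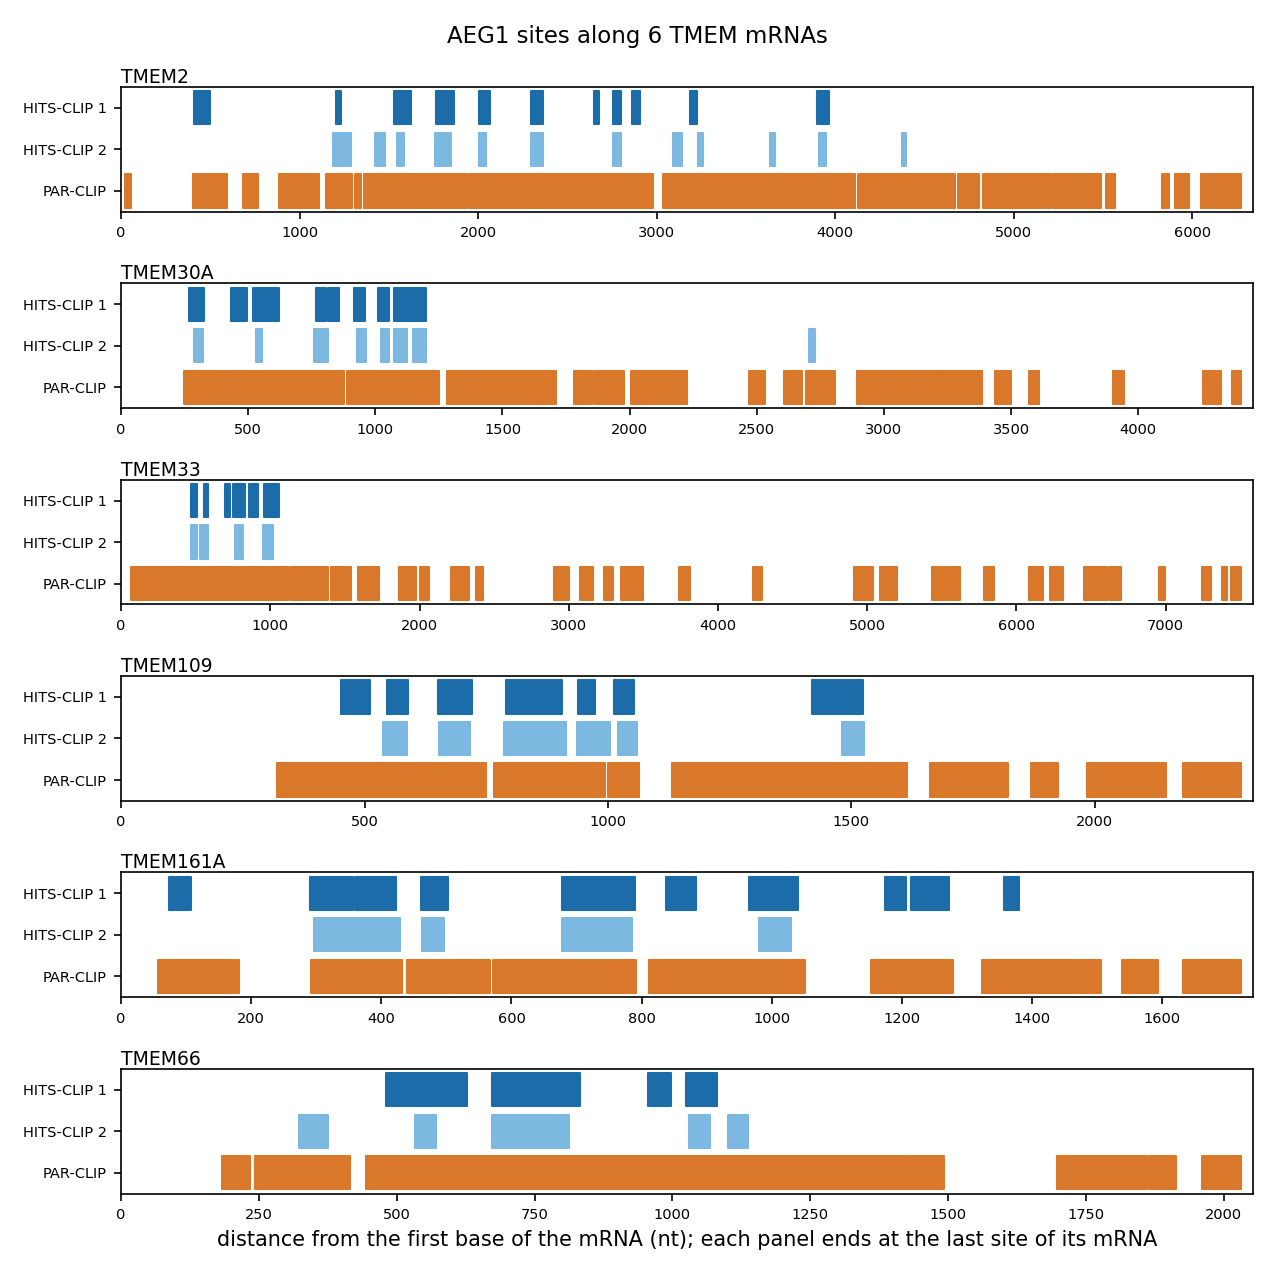
Sites along 6 TMEM mRNAs, with distance from the first base of the mRNA in nt on each horizontal axis; bars are sites of HITS-CLIP AEG1 replicate 1, replicate 2 and PAR-CLIP AEG1. HITS-CLIP sites of TMEM33 lie between nt 467 and nt 1061 while PAR-CLIP sites reach nt 7507, and those of TMEM2 spread from nt 409 to nt 4400.

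No PAR-CLIP site lay over 5 of the shared HITS-CLIP regions, and their genes other than TMEM91 were chosen after their values were seen. They were nt 102 to 128 of TMEM91, nt 226 to 245 of TMEM117, nt 6801 to 6842 of TMEM120B, nt 53 to 84 of TMEM132A and nt 131 to 183 of TMEM185A. The TMEM117 sites were 20 and 19 nt wide in replicates 1 and 2, with a score of 10.44 in each. Its PAR-CLIP site lay elsewhere, at nt 885 to 948, with a score of 9.36. Among all HITS-CLIP control sites, 65% and 67.8% were 25 nt or shorter. In the HITS-CLIP AEG1 replicates it was 3.88% and 6.38% of TMEM sites, beside 6.80% and 7.01% of the sites on all genes. These TMEM117 sites thus have a width that is more frequent among control sites, and whether they are background was not tested. No control library had a site on TMEM117.

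The authors' score compares sites within an mRNA and not between mRNAs. In 27 of the 29 TMEM genes found in all AEG1 libraries, the highest PAR-CLIP AEG1 score exceeded the mean of the highest HITS-CLIP AEG1 scores. The same held for 1076 of 1244 genes over all and for 51 of 52 solute carriers, so it was general to these libraries. The median difference was 1.89 on the log2 scale (range -1.08 to 4.10), beside 1.66 over 1244 genes and 1.92 over the solute carriers. TMEM33 had highest scores of 15.18 in PAR-CLIP and 11.48 in each HITS-CLIP replicate. TMEM66 had 8.40 in PAR-CLIP against 5.08 and 3.99 in HITS-CLIP. The highest score of replicate 1 differed from that of replicate 2 by a median of -0.04 (range -3.00 to 2.81). It was within 1 in 21 of 30 TMEM genes, beside 1039 of 1321 over all genes. The median size of that difference, whichever its sign, was 0.45, so the median gap to PAR-CLIP was the larger. TMEM117 had the lowest difference, and TMEM120B was the other gene with PAR-CLIP below the HITS-CLIP mean. Library sizes differ and the scores are not scaled for them as far as the values show, and the part of library size in this difference was not tested.

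**Figure D5:**
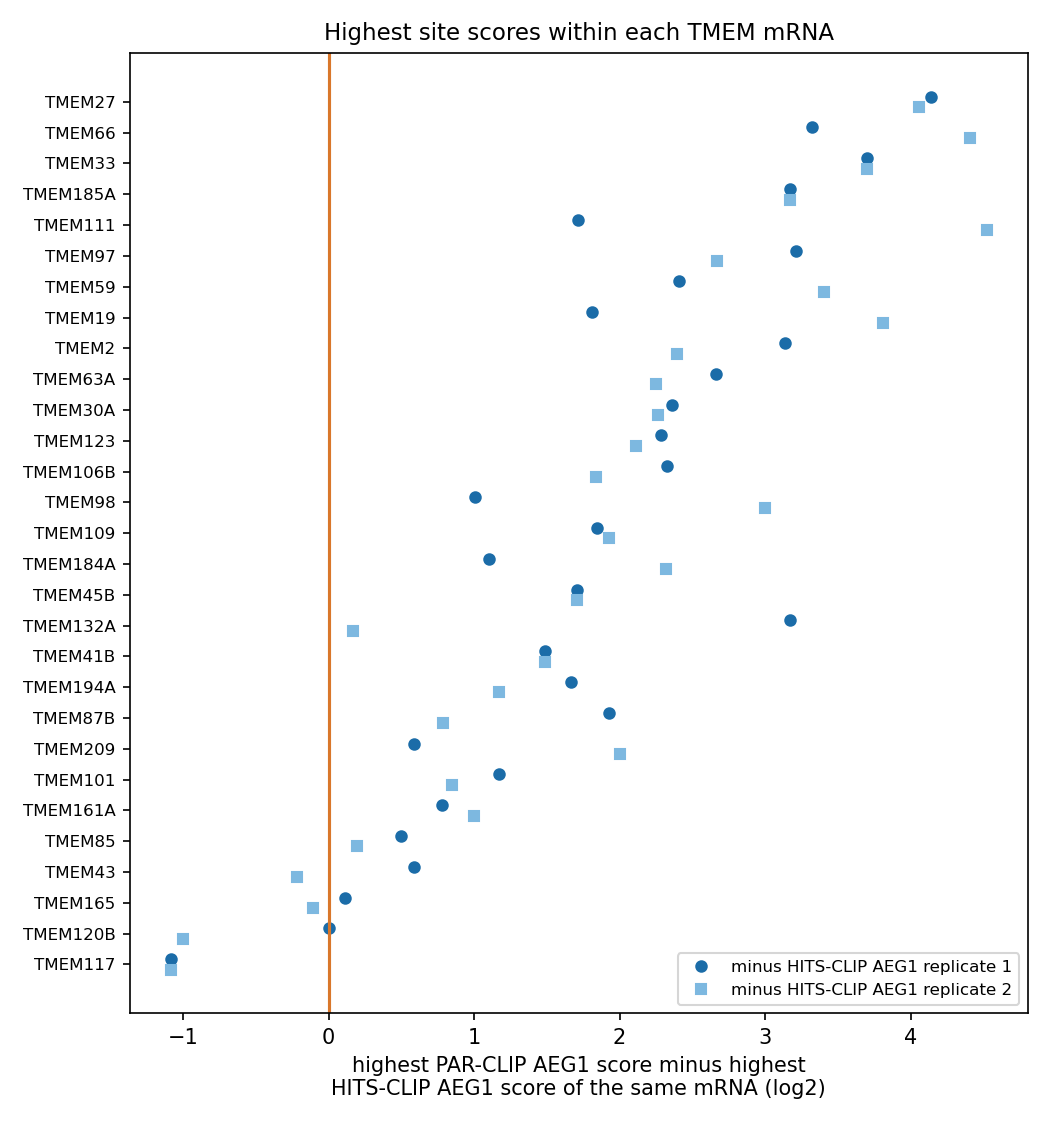
Highest PAR-CLIP AEG1 score minus the highest score of HITS-CLIP AEG1 replicate 1 (circles) or replicate 2 (squares) on the same mRNA, on the log2 scale, for 29 TMEM genes; the vertical line marks 0. Values are above 0 for most genes, and TMEM117 lies below 0 in both replicates.

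Genes that share a number and differ by a letter were compared as pairs or triplets, 17 groups of 36 TMEM genes in all. In 10 groups 1 member was in both HITS-CLIP AEG1 replicates, in 7 groups no member was, and in 0 groups more than 1 was. Over all TMEM genes 24.4% were in both, and how many such groups that share alone would give was not worked out. Some partners of a gene in both replicates had sites in replicate 1 alone. TMEM87A had 2 and 0 HITS-CLIP AEG1 sites, TMEM184C had 1 and 0, and TMEM185B had 1 and 0. TMEM161A had 10 and 4 HITS-CLIP AEG1 sites and TMEM161B had 0 and 0, although each had 11 PAR-CLIP AEG1 sites. TMEM41B had 2, 2 and 21 sites, and TMEM41A had 0, 0 and 7. TMEM45B had 4, 3 and 9 sites, and TMEM45A had 0, 0 and 5. In 5 of the 10 groups the member in both replicates was the one with most PAR-CLIP sites, and in 1 group, TMEM161, it tied for most. TMEM161B, TMEM41A, TMEM45A, TMEM87A, TMEM184C and TMEM185B were chosen after their values were seen. Reads of near-identical copies, such as TMEM183A and TMEM183B with 5 PAR-CLIP sites each, may have been split between them.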

How the data were processed

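RNA bound to HA-tagged AEG1 was measured in 6 libraries of AEG-1-14 cells, sequenced as 50 nt single reads per the labels' protocols. A deposited file holds 1 library's sites by RefSeq mRNA, symbol, start, end and the authors' score. The deposited score is on a log2 scale, read from its values, relative to a constant of each transcript, so it was compared within an mRNA only. Per the submitters' processing notes Bowtie was used (no version stated). Site caller, threshold and build: not given in the sources used here. Replicates are not stated to be separate cultures, so p-values may measure technical spread.

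Starts were taken as 0-based and printed 1-based. Symbols were kept as listed; current names come from a RefSeq gene table (GRCh38.p14), where 121 members matched by accession and 2 by synonym. Sites were counted per gene and library and overlapped by at least 1 nt in Python 3.11.15 with numpy 2.4.6, pandas 2.3.3 and scipy 1.17.1; figures used matplotlib 3.10.9. Shares carry Clopper-Pearson 95% intervals. The HITS-CLIP site counts were compared by a two-sided exact permutation test. Overlap counting was tested on simulated sites. The named genes are those with most sites in both HITS-CLIP AEG1 replicates or in PAR-CLIP AEG1, with control sites, with sites in one method alone, and the leading 2 of each role list. The members, the role lists and the marker lists were chosen with earlier results of these data known. Alternatives covered short or low-scoring sites, stricter overlap and presence, current names and left-out replicates.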

Additional observations from a re-analysis of the deposited data

How the results depend on the processing

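The TMEM share in both HITS-CLIP AEG1 replicates lay above the all-gene share in 16 of 16 alternatives. These alternatives filter the same genes and libraries in different ways, so they are not independent of each other. None compared genes with like numbers of PAR-CLIP AEG1 sites. At 1 to 3 such sites the TMEM share was the lower one, 5.13% beside 7.31% of all genes. A count of genes was held to have moved past 1.5 times the reported one, a share outside its reported exact interval, and a gene's mean number of sites beyond 1 SD of its replicates, while the site difference was held to its direction alone. By these unequal limits 29 of the summary values stayed and 4 moved. The HITS-CLIP controls had 0 TMEM sites in every alternative. The site difference thus could not change direction, and its values among those that stayed were bound to stay. Requiring at least 2 sites in each library gave 17 TMEM genes in both HITS-CLIP AEG1 replicates, 13.8% beside 8.03% of all genes. It also gave 17 genes among the 104 TMEM genes with at least 2 PAR-CLIP AEG1 sites. That was 16.3%, beside 9.48% of all genes with at least 2 PAR-CLIP AEG1 sites. A site in either replicate gave 46 genes, 37.4% beside 27.3%. Requiring an overlap of at least 0.5 of each site left 42.7% of replicate 1 sites overlapped in replicate 2. Leaving out 1 HITS-CLIP replicate gave differences of 94 to 103 TMEM sites, 38 to 38 genes, 37 to 37 genes with a PAR-CLIP site and 92.6% to 93.2% of sites covered by PAR-CLIP. With the replicate number as a block, the difference was 98.5 sites and p = 0.5 by the exact permutation test, the smallest that 2 pairs allow; the labels do not say that equal numbers share a culture. Of values for single genes, 104 stayed and 8 moved. Leaving out 1 of 2 replicates cannot exceed 1 SD, so those values could not move. Neither could the values of named genes with 0 HITS-CLIP AEG1 sites, where a filter has nothing to drop. Of the 8 that moved, 7 did so when sites at or below the median score of their library were dropped: TMEM66 and TMEM123 then had 0 HITS-CLIP AEG1 sites. Scores are not on one scale across mRNAs, so that filter drops whole genes. Leaving out readthrough and noncoding members was added after seeing the data. Protein length and hydrophobic segments were not run, because no protein table was used here. Small control libraries limit what can be said of TMEM shares without UV.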

Other observations

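Of 233 protein-coding genes now named TMEM in RefSeq, 113 had a site and 120 had none in the libraries used here. Among the 123 members, 25 now carry another name. In the other direction, 25 genes with an older TMEM symbol are listed under another name, and 4 of them (16%) had sites in both HITS-CLIP AEG1 replicates, beside 16.1% of all genes. Of 16 genes now named TMEM but listed under another name, 2 (12.5%) did. Both shares are no higher than that over all genes. One of the 4 is VMP1, an ER scramblase that acts with TMEM41B in autophagy, with 4 and 5 HITS-CLIP AEG1 sites and 10 PAR-CLIP AEG1 sites. Another is LMF2, a paralogue of a lipase maturation factor, with 7, 7 and 13 sites. B3GNT3, a Golgi glycosyltransferase, had 2, 3 and 16. These genes were chosen after their values were seen.

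TMEM111 and TMEM85 are subunits of the ER membrane complex, which inserts proteins into the ER membrane. Each had a site in both HITS-CLIP AEG1 replicates, but the replicates had no position in common on either mRNA. TMEM111 (now EMC3) had 1 and 1 HITS-CLIP AEG1 sites and 6 PAR-CLIP AEG1 sites, and TMEM85 (now EMC4) had 1, 2 and 6. TMEM93 (now EMC6), a further subunit, had 0 HITS-CLIP sites and 3 PAR-CLIP sites. These too were chosen after their values were seen. Across the 30 TMEM genes in both replicates, the numbers of sites in replicates 1 and 2 had a Pearson correlation of 0.83 and a Spearman correlation of 0.71 across genes, which share the length and abundance of each mRNA, beside 0.96 and 0.84 over the 1321 genes in both replicates. The scores of 101 of 197 TMEM HITS-CLIP AEG1 sites (51.3%) equalled, within 0.001, the score of a site of another library on the same mRNA. That share was not worked out over all genes, so it is not shown to be particular to TMEM mRNAs.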
